A study of Arabidopsis thaliana with 12 samples.

Results

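UDP-glycosyltransferases (UGTs) and cytochrome P450s (CYPs) are large plant enzyme families that modify small molecules. A UGT attaches a sugar, often glucose, to a hormone, phenolic or toxin, which usually makes it more soluble and can make it inactive or ready for storage. A cytochrome P450 is a heme enzyme that inserts oxygen into its substrate, and many P450s act in the synthesis of phenolics, glucosinolates and hormones or in the breakdown of toxins. In roots, genes of both families are known for their part in defence chemistry, in lignin precursors and in the handling of foreign compounds.

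The members described here are the probe sets of the ATH1 GeneChip, an array on which a group of short probes reads each transcript, that the platform annotation pairs with 1 gene whose symbol is UGT or CYP followed by a number, a letter and a number. The rule found 69 members among 22746 probe sets other than controls, 47 of them UGT genes and 22 CYP genes. Each member is a different gene. The coverage of the families by the annotation was unequal. The 47 UGT genes are 81% of the 58 UGT symbols of that form in the TAIR10.1 gene table of RefSeq, whereas the 22 CYP genes are 9.78% of 225, and 18 of the 22 belong to the single subfamily CYP71B. What follows about P450s is therefore almost entirely about CYP71B.

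Signals came from roots of 12-d-old Arabidopsis thaliana plants (5 d on basal medium, then 7 d after transfer), in 4 groups of 3 arrays. sahy1 is a T-DNA insertion mutant of SAHY1, which encodes a nucleolar protein, and Col-0 is its wild type. SAHY1OE is a single line that overexpresses SAHY1 (line 4-1 in the labels), and Col-7 is the wild type of that line. The mutant and the overexpression line thus lie in different wild types, and the labels do not give the promoter of the overexpression construct. The study describes plants that express SAHY1-Myc from the constitutive 35S promoter, and whether SAHY1OE is one of them is not stated.

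SAHY1 itself had signals of 65.5, 7.0 and 142.9 in sahy1 roots, against 450.7, 257.9 and 335.5 in Col-0 roots (limma adjusted p = 0.0103). It had signals of 20069 to 20789 in SAHY1OE roots, against 252.4 to 283.7 in Col-7 roots (limma adjusted p = 0.00418). The ER body beta-glucosidase PYK10, an abundant root protein, had signals of 17525 to 25379 over the 12 arrays. Of 4 root hair markers listed, the annotation paired 2 with a probe set (EXPA7 and EXPA18). Their summed signal was 580.6 to 746.1 in sahy1, against 1283 to 1527 in SAHY1OE, 1311 to 1525 in Col-7 and 1304 to 1500 in Col-0. The cortex marker CO2 was dim, at 59.5 to 92.8 in sahy1, 135.0 to 162.5 in SAHY1OE, 72.6 to 164.1 in Col-7 and 84.3 to 95.5 in Col-0. Markers of leaf, epidermis, meristem, endodermis, stele, xylem and phloem were paired with no probe set here. Array medians ranged from 192.4 to 204.2.

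A member was kept for testing when a group had all 3 of its arrays at or above the 40th percentile, which corresponded to signals of 109.6 to 121.7. By this rule 32 of the 69 members were kept (46.4%), against 60.8% of all probe sets. The share was 51.1% for UGT genes (24 of 47) and 36.4% for CYP genes (8 of 22). Of the 32, 28 passed in all 4 groups. The other 4 (UGT76D1, UGT85A4, CYP71B34 and CYP84A4) passed in SAHY1OE, Col-7 and Col-0 but not in sahy1, so no member entered through a single group.

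Several UGT subfamilies were kept whole or were dim throughout. All 5 UGT71C genes, all 3 UGT72E genes, which encode glucosyltransferases of lignin precursors, and all 3 UGT73B genes were kept. In contrast, none of the 4 UGT71B, 4 UGT76E, 3 UGT73C and 2 UGT84B genes was kept, with mean percentiles between 6.69 and 39.9. Of 18 CYP71B genes 7 were kept, and their mean percentiles ran over nearly the whole array, between 7.49 and 93.1. A rank also depends on the probes, so the order of genes is not an order of transcript amounts. The brightest members were CYP71B6, a P450 of indole metabolism (93.1), UGT72E2 (91.4) and UGT72E1 (91.0), then UGT76B1 (89.8), which acts on the defence signals isoleucic acid and salicylic acid, and UGT74B1 (89.7), which attaches the glucose of glucosinolates.

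**Figure D1:**
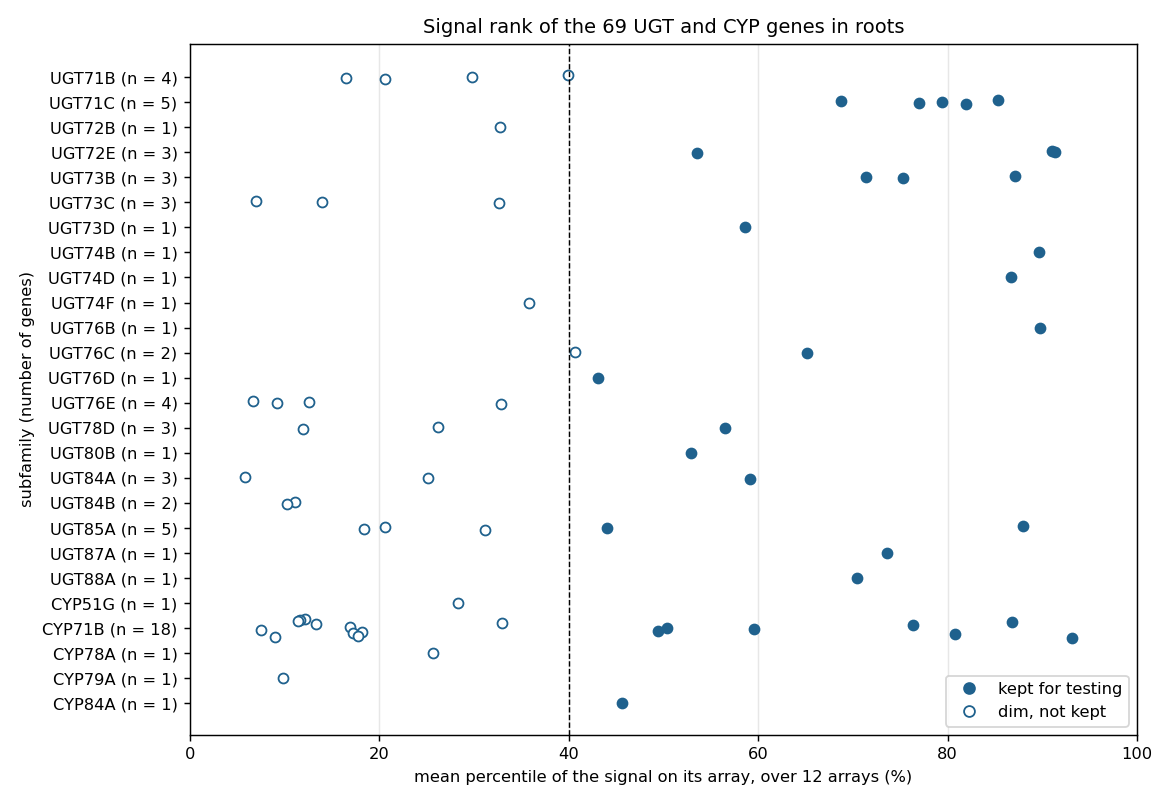
Mean percentile of the signal on its array (x axis, %, over 12 arrays) for each of the 69 genes, by subfamily (y axis, UGT above CYP). Filled points are the 32 genes kept, open points the 37 dim ones, and the dashed line is the 40th percentile, which all 3 arrays of a group had to reach. UGT71C, UGT72E and UGT73B have filled points only, whereas the 18 CYP71B genes spread between 7.49 and 93.1.

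In sahy1 against Col-0, 2 of the 24 UGT genes were called higher (UGT85A2 and UGT73B4), with an adjusted p under 0.05 in limma and a fold above 2, and none was called lower. None of the 8 CYP genes passed both limits. The background was 2.37% called higher and 1.76% called lower among all 13834 probe sets kept, or 4.13% in both directions. At an adjusted p under 0.05 with no fold limit, 3 UGT genes were higher (those 2 and UGT88A1) and 3 were lower (UGT76D1, UGT71C1 and UGT71C2), beside 7.7% higher and 7.32% lower of all probe sets kept. By the same limit 4 of the 8 CYP genes were lower (CYP71B34, CYP71B37, CYP71B23 and CYP71B29) and none was higher. Of the lower genes, UGT76D1 and CYP71B34 passed the filter in every group except sahy1. With the study's unpaired test, which fits each gene alone, UGT85A2, UGT73B4 and CYP71B23 passed the adjusted p and the other 7 did not. In whole roots, fewer cells of a type and less RNA per cell cannot be told apart.

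UGT85A2 (AT1G22360) belongs to the subfamily of the cytokinin glucosyltransferase UGT85A1. Its signals were 2046, 1920 and 2051 in sahy1 roots, 1907, 1553 and 1607 in SAHY1OE roots, 1644, 1960 and 1415 in Col-7 roots, and 776, 641 and 604 in Col-0 roots. The Col-0 arrays stood apart, below all 9 others, as for 3.9% of all probe sets kept, and no other member kept had this pattern. In sahy1 the gene was 2.99-fold higher than in Col-0 (log2 fold change 1.58 ± 0.15 SE, limma adjusted p = 6.94e-06). However, wild-type Col-7 was also higher than Col-0, by 2.48-fold (log2 1.31 ± 0.15 SE, limma adjusted p = 7.49e-05). Between sahy1 and Col-7 the log2 fold change was 0.27, with a 95% interval from -0.04 to 0.59 (limma adjusted p = 0.243). With the study's unpaired test the difference of the wild types did not pass (adjusted p = 0.118). The mutant was thus called against Col-0 and not against Col-7.

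UGT73B4 (AT2G15490) belongs to a subfamily whose members respond to pathogens and to foreign compounds. Its signals were 1027, 808 and 710 in sahy1 roots, 406, 561 and 360 in SAHY1OE roots, 404, 610 and 500 in Col-7 roots, and 411, 359 and 366 in Col-0 roots. All 3 sahy1 arrays lay above the other 9. The gene was 2.22-fold higher in sahy1 than in Col-0 (log2 1.15 ± 0.19 SE, limma adjusted p = 0.00108). Against Col-7 it was 1.69-fold higher, which passed the adjusted p but not the fold limit (log2 0.75 ± 0.19 SE, limma adjusted p = 0.0217). The result against Col-7 was lost without sahy1 replicate 1, Col-7 replicate 1 or Col-7 replicate 3 (limma adjusted p = 0.0979, 0.0735 and 0.0547). The wild types differed by a log2 value of 0.40 (Col-7 over Col-0, limma adjusted p = 0.357).

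UGT88A1 (AT3G16520), which glucosylates flavonols in vitro, showed the same order of groups at a smaller size. Its signals were 722, 699 and 610 in sahy1 roots, 409, 432 and 430 in SAHY1OE roots, 458, 492 and 565 in Col-7 roots, and 360, 345 and 435 in Col-0 roots. It was higher in sahy1 than in either wild type, 1.79-fold over Col-0 (limma adjusted p = 0.000625) and 1.34-fold over Col-7 (limma adjusted p = 0.0468). The value against Col-7 was at the limit, and it passed without Col-7 replicate 3 or Col-0 replicate 3 but not when any other single array was left out (limma adjusted p = 0.0551 to 0.15). UGT73B4 and UGT88A1 were 2 of 24 UGT genes with all sahy1 arrays above the 9 others, beside 7.36% of all probe sets kept.

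The same position at the low end was held by UGT71C1, UGT71C2, UGT73B1 and UGT76D1, 4 of 24 UGT genes, and by CYP71B23, CYP71B29, CYP71B34 and CYP71B37, 4 of 8 CYP genes, beside 7.11% of all probe sets kept. Of these, UGT76D1 and CYP71B34 had entered through the groups other than sahy1. UGT76D1 (AT2G26480), an enzyme that glucosylates dihydroxybenzoic acids formed from salicylic acid, had signals of 113, 91.1 and 115 in sahy1 roots, 136, 125 and 127 in SAHY1OE roots, 132, 149 and 124 in Col-7 roots, and 167, 185 and 185 in Col-0 roots. The groups formed 3 steps, with sahy1 lowest, SAHY1OE and Col-7 overlapping in the middle and Col-0 highest. It was 1.69-fold lower in sahy1 than in Col-0 (log2 -0.76 ± 0.13 SE, limma adjusted p = 0.00106). Its difference from Col-7 did not pass (log2 -0.35, limma adjusted p = 0.0865).

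UGT73B1 (AT4G34138) differed from the wild types in another way. Its signals were 856, 982 and 817 in sahy1 roots, 1500, 1535 and 1230 in SAHY1OE roots, 1484, 1659 and 1529 in Col-7 roots, and 1016, 1199 and 1172 in Col-0 roots. The sahy1 arrays were the lowest and the Col-0 arrays lay between them and the other 2 groups. The gene was 1.76-fold lower in sahy1 than in Col-7 (log2 -0.82 ± 0.13 SE, limma adjusted p = 0.00147), and its difference from Col-0 did not pass (log2 -0.35, limma adjusted p = 0.089). With Col-7 over Col-0 the log2 value was 0.47 (limma adjusted p = 0.0643).

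**Figure D2:**
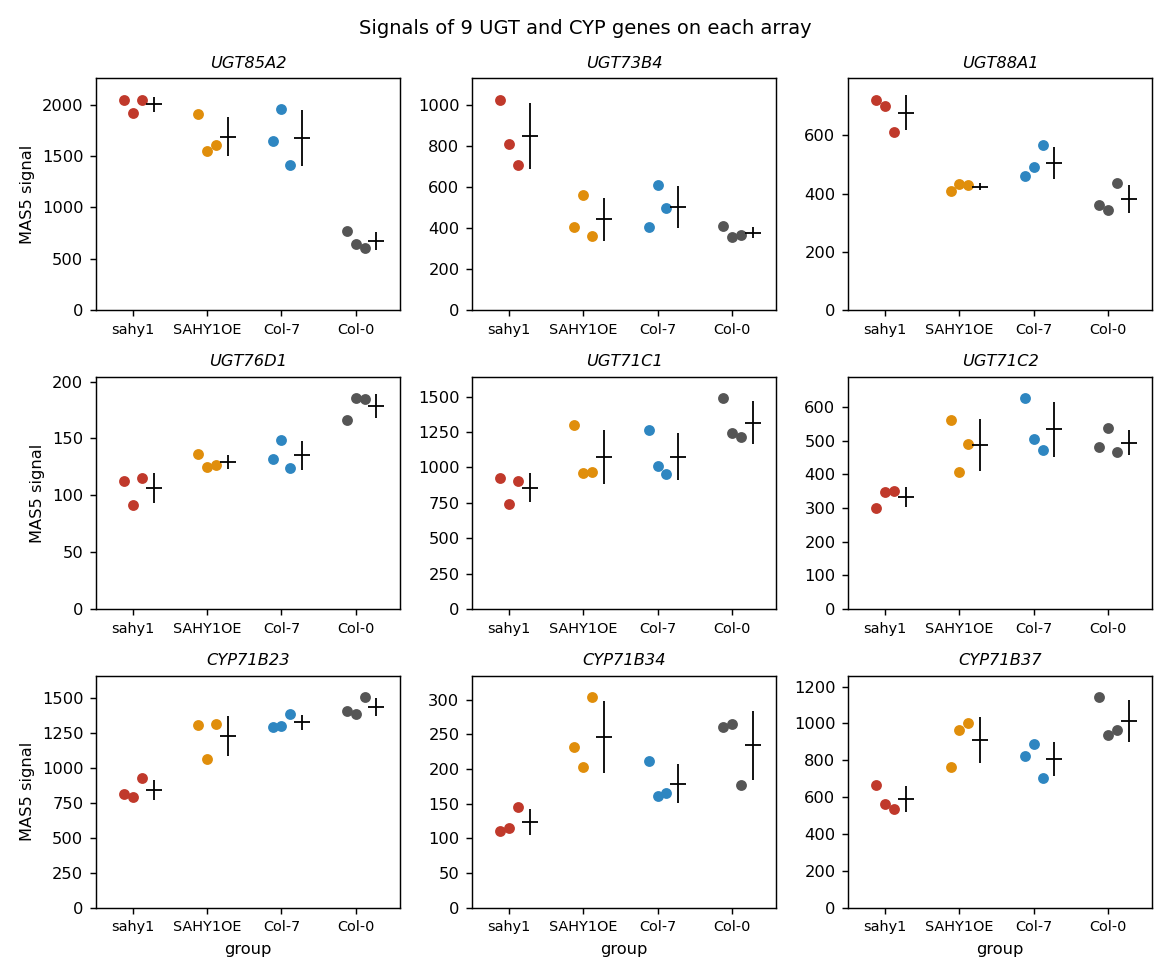
MAS5 signal (y axis, linear, from 0) of 9 genes on each array, with the groups on the x axis in the order sahy1, SAHY1OE, Col-7 and Col-0. Points are the 3 arrays, and the black mark beside them is their mean ± SD. For UGT85A2 the Col-0 arrays lie apart at 604 to 776, whereas for UGT73B4 and UGT88A1 the sahy1 arrays lie above the 9 others and for the other 6 genes below them.

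Within the UGT subfamilies the members gave unlike values. The 3 UGT73B genes gave 3 different patterns. UGT73B4 was higher in sahy1 than in either wild type, UGT73B1 was lower than in Col-7, and UGT73B5 (AT2G15480) had log2 fold changes of -0.12 against Col-0 and -0.005 against Col-7, with 95% intervals from -0.40 to 0.16 and from -0.28 to 0.27. UGT73B4 and UGT73B5 are adjacent genes on chromosome 2. The interval of UGT73B4 against Col-0 ran from 0.74 to 1.56, apart from that of its neighbour, and the difference between the genes was not tested.

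The 5 UGT71C genes fell into 2 runs of adjacent genes. UGT71C1, known for glucosylating flavonols and lignans, and UGT71C2 lie next to each other on chromosome 2. UGT71C1 had signals of 926, 740 and 905 in sahy1 roots, 1298, 959 and 971 in SAHY1OE roots, 1266, 1008 and 953 in Col-7 roots, and 1489, 1246 and 1213 in Col-0 roots. UGT71C2 had signals of 298, 347 and 350 in sahy1 roots, 561, 408 and 491 in SAHY1OE roots, 626, 504 and 471 in Col-7 roots, and 480, 537 and 466 in Col-0 roots. The sahy1 arrays were the lowest for both genes, and the other 3 groups overlapped for UGT71C2.

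Both were lower in sahy1 than in Col-0, by 1.54-fold for UGT71C1 (limma adjusted p = 0.018) and by 1.49-fold for UGT71C2 (limma adjusted p = 0.0176). UGT71C1 no longer passed without sahy1 replicate 2 or Col-0 replicate 1 (limma adjusted p = 0.0677 and 0.0775), nor did UGT71C2 without sahy1 replicate 1 or Col-0 replicate 2 (limma adjusted p = 0.078 and 0.0786). Against Col-7 only UGT71C2 passed (log2 -0.68, limma adjusted p = 0.0101), with UGT71C1 at -0.32 (limma adjusted p = 0.207). The second run, UGT71C5, UGT71C4 and UGT71C3 on chromosome 1, includes an abscisic acid glucosyltransferase (UGT71C5) and a methyl salicylate glucosyltransferase (UGT71C3). These 3 genes had log2 fold changes of 0.01, -0.10 and 0.07 in sahy1 against Col-0, and none passed in any comparison. UGT71C4 gave the highest UGT value in SAHY1OE against Col-7, a log2 fold change of 0.26 with a 95% interval from -0.08 to 0.60.

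The 3 UGT72E genes, for enzymes that glucosylate coniferyl and sinapyl alcohols or aldehydes, gave no call in any comparison. UGT72E2, the main coniferyl alcohol glucosyltransferase of roots, had signals of 2006, 2845 and 2221 in sahy1 roots, 1360, 1371 and 2115 in SAHY1OE roots, 1513, 1612 and 1897 in Col-7 roots, and 1871, 1487 and 1555 in Col-0 roots. The sahy1 arrays lay above both wild types but overlapped with SAHY1OE, and the log2 fold changes of 0.52 against Col-0 (limma adjusted p = 0.0817) and 0.48 against Col-7 (limma adjusted p = 0.106) did not pass. UGT72E1 and UGT72E3 had log2 fold changes of -0.01 and -0.09 in sahy1 against Col-0.

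Other UGT genes with known roles did not pass the test in sahy1 against Col-0. The log2 fold changes were -0.17 for UGT76B1, -0.18 for UGT76C2, a cytokinin N-glucosyltransferase, -0.16 for UGT78D2, the flavonoid 3-O-glucosyltransferase, and -0.10 for UGT74B1. They were 0.08 for UGT80B1, a sterol glucosyltransferase, 0.20 for UGT84A4, a hydroxycinnamate glucosyltransferase, and 0.12 for UGT87A2, which is known to influence flowering time. UGT74D1, which glucosylates auxins, stood at 0.40 (limma adjusted p = 0.0759). UGT76B1 was the most variable, with signals of 1205 to 2195 in sahy1 roots, 1330 to 1707 in SAHY1OE roots, 1137 to 1972 in Col-7 roots and 1395 to 2072 in Col-0 roots, and its 95% interval in sahy1 against Col-0 was wide, from -0.70 to 0.37.

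Most kept P450 genes had lower signals in sahy1. In sahy1 against Col-0, 7 of 8 CYP genes had a log2 fold change below 0, and their median was -0.45, beside 13 of 24 UGT genes below 0 with a median of -0.05 and a median of 0.00 over all probe sets kept. For 5 of the 8 CYP genes the sahy1 arrays did not overlap with the Col-0 arrays and lay below them, beside 16.5% of all probe sets kept. The corresponding UGT counts were 6 of 24 above Col-0, beside 17.5%, and 4 of 24 below it. Over the 7 kept CYP71B genes the median was -0.60, and the range ran from -0.91 to 0.02. CYP71B34 and CYP84A4 passed the filter in SAHY1OE, Col-7 and Col-0 but not in sahy1, so the filter could favour values below 0. The same limit holds for the CYP counts and medians in the other comparisons with sahy1.

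CYP71B23 (AT3G26210) had signals of 815, 791 and 928 in sahy1 roots, 1311, 1067 and 1315 in SAHY1OE roots, 1294, 1306 and 1391 in Col-7 roots, and 1414, 1386 and 1511 in Col-0 roots. The sahy1 arrays were clear of the other 9. The gene was lower in sahy1 than in both wild types, by 1.70-fold against Col-0 (log2 -0.77 ± 0.12 SE, limma adjusted p = 0.000722) and by 1.58-fold against Col-7 (log2 -0.66 ± 0.12 SE, limma adjusted p = 0.00402). It was the one CYP gene that passed against Col-7.

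CYP71B37 (AT3G26330) had signals of 667, 562 and 537 in sahy1 roots, 765, 963 and 1003 in SAHY1OE roots, 823, 887 and 706 in Col-7 roots, and 1143, 935 and 965 in Col-0 roots. CYP71B34 (AT3G26300), a dimmer gene whose sahy1 signals lay near the filter, had 111, 115 and 146 in sahy1 roots, 232, 203 and 304 in SAHY1OE roots, 211, 161 and 165 in Col-7 roots, and 261, 265 and 176 in Col-0 roots. For both genes sahy1 was lowest and Col-7 was the next lowest group by mean.

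CYP71B37 was 1.72-fold lower in sahy1 than in Col-0 (log2 -0.79 ± 0.15 SE, limma adjusted p = 0.00243), and its value against Col-7 was -0.45 (limma adjusted p = 0.0595). CYP71B34 was 1.88-fold lower than in Col-0 (log2 -0.91 ± 0.20 SE, limma adjusted p = 0.00619), and its value against Col-7 was -0.53 (limma adjusted p = 0.0913). Without Col-0 replicate 3 or without sahy1 replicate 3, CYP71B34 passed the fold limit too and was called lower, at -1.10 and -1.03.

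CYP71B29 (AT1G13100) had signals of 254, 275 and 180 in sahy1 roots, 298, 277 and 370 in SAHY1OE roots, 344, 290 and 353 in Col-7 roots, and 363, 361 and 331 in Col-0 roots. It was 1.51-fold lower in sahy1 than in Col-0 (limma adjusted p = 0.0261), and its value against Col-7 was -0.50 (limma adjusted p = 0.0658). The result against Col-0 was lost without sahy1 replicate 3, Col-0 replicate 1 or Col-0 replicate 2 (limma adjusted p = 0.117, 0.0764 and 0.0825). The adjacent gene CYP71B28 had log2 fold changes of 0.02 against Col-0 and 0.38 against Col-7 (limma adjusted p = 0.213), so 2 neighbours on chromosome 1 again gave unlike values. CYP71B26 had -0.30 against Col-0 (limma adjusted p = 0.188), and CYP84A4, an enzyme of arabidopyrone synthesis, had -0.12 (limma adjusted p = 0.759).

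CYP71B6 (AT2G24180), the brightest P450 here, did not pass in either mutant comparison. Its signals were 2254, 2101 and 2173 in sahy1 roots, 2073, 2080 and 2289 in SAHY1OE roots, 1819, 2121 and 1571 in Col-7 roots, and 2338, 2350 and 2583 in Col-0 roots. The Col-0 arrays lay above the other 9, a position also held by UGT76D1, beside 3.02% of all probe sets kept. The log2 fold change was -0.15 in sahy1 against Col-0 (limma adjusted p = 0.466) and 0.25 in sahy1 against Col-7 (limma adjusted p = 0.205).

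**Figure D3:**
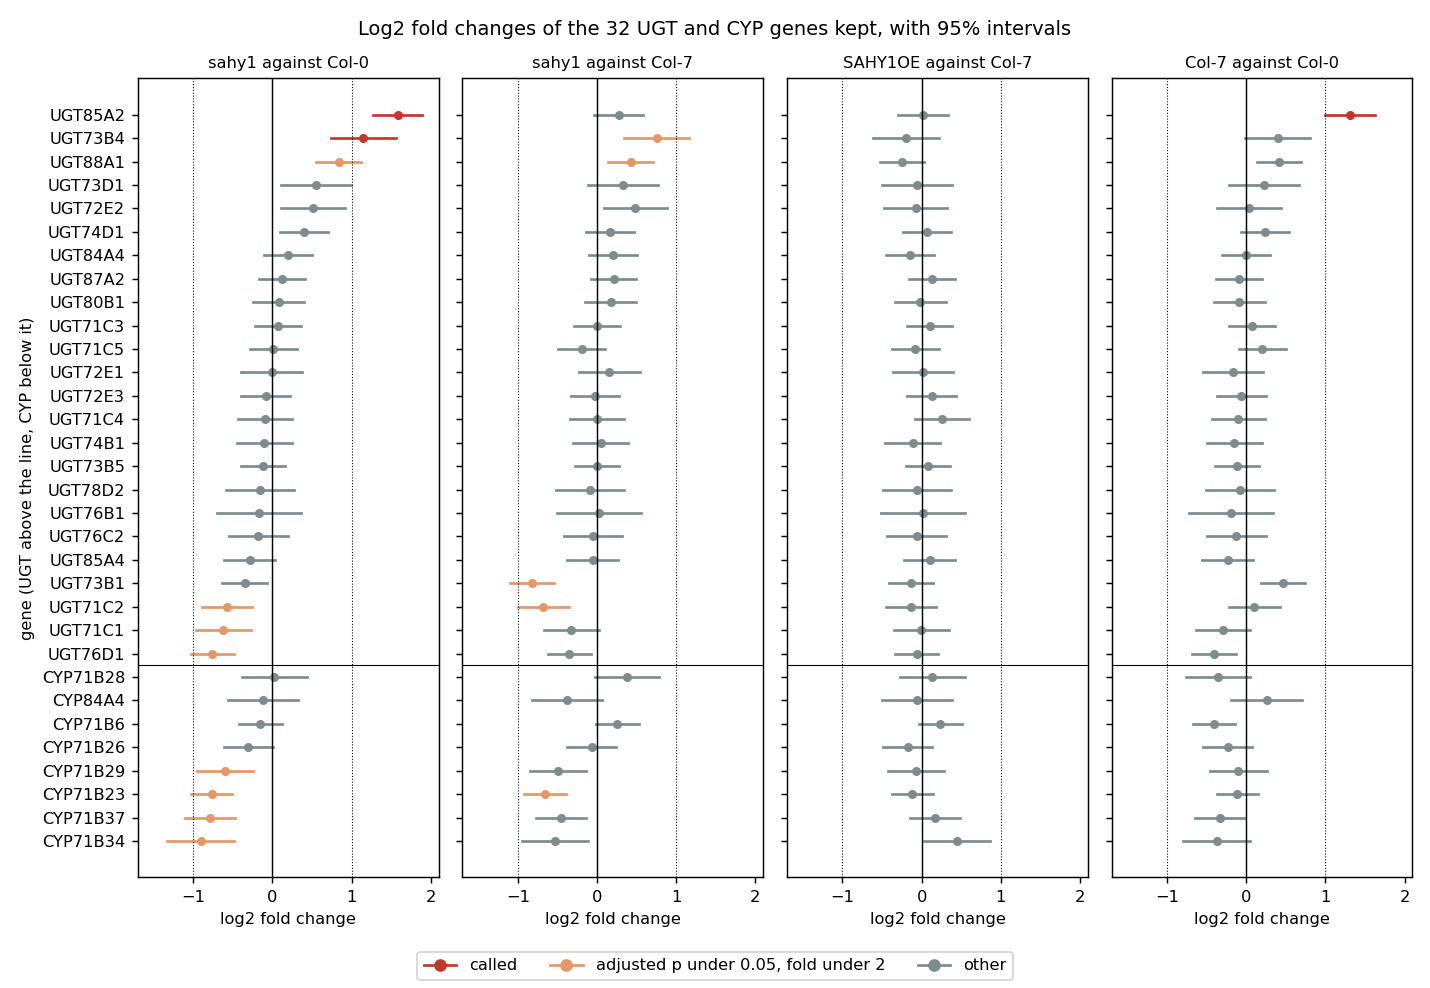
Log2 fold change (x axes) with its 95% interval for the 32 genes kept, in 4 comparisons, with UGT genes above the horizontal line and CYP genes below it, both ordered by sahy1 against Col-0. Dotted lines mark a 2-fold change. In sahy1 against Col-0, 7 of 8 CYP genes lie below 0, and in SAHY1OE against Col-7 no gene passes an adjusted p of 0.05.

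Since Col-0 and Col-7 differ, the mutant was also set against Col-7. In that comparison no member was called, beside 2.36% of all probe sets kept. Without adjustment, at p under 0.05, 3 UGT genes were higher (background 14%), and 3 UGT and 4 CYP genes were lower (background 14%). At an adjusted p under 0.05, 2 UGT genes were higher (UGT73B4 and UGT88A1), beside 6.22% of all probe sets kept. At the same limit 2 UGT genes (UGT73B1 and UGT71C2) and 1 CYP gene (CYP71B23) were lower, beside 6.69%. The CYP median was -0.41, with 6 of 8 genes below 0, beside a UGT median of 0.01 and a median of 0.01 over all probe sets kept. With the study's unpaired test none of these 5 passed. Both comparisons use the same sahy1 arrays. The adjusted p was under 0.05 against both wild types for UGT73B4 and UGT88A1, which were higher, and for UGT71C2 and CYP71B23, which were lower. The share of all probe sets kept that passed against both was not counted, so this overlap has no background beside it.

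Between the wild types 1 member passed the limits. UGT85A2 was called higher in Col-7, beside 1.27% of all probe sets kept, and no member was called lower, beside 0.535%. It was also the one member with an adjusted p under 0.05 (2.57% of all probe sets kept were higher and 1.66% lower at this limit). Of the 8 CYP genes 7 were below 0 in Col-7 against Col-0, with a median of -0.29 beside -0.01 over all probe sets kept, and none passed the adjusted p. This comparison shares its Col-0 arrays with sahy1 against Col-0, so the values are not a second, separate observation. The UGT genes had a median of -0.07.

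No UGT or CYP gene passed the test in the overexpression line. In SAHY1OE against Col-7 no member was called and none had an adjusted p under 0.05 in limma, beside 0.0217% of all probe sets called and, at that adjusted p, 0.0217% higher and 0.00723% lower. Without adjustment, at p under 0.05, CYP71B34 was the 1 member of 32 that passed (higher), beside 2.1% of all probe sets kept that were higher and 2.61% that were lower. The log2 fold changes ran from -0.25 to 0.26 over the 24 UGT genes and from -0.18 to 0.45 over the 8 CYP genes. UGT88A1 gave the lowest value and CYP71B34 the highest (95% interval from 0.03 to 0.87, limma adjusted p = 1). SAHY1OE arrays lay all above or all below the 9 others for no member, beside 0.549% and 0.846% of all probe sets kept. When the SAHY1OE effect was subtracted from the sahy1 effect (sahy1 against Col-0), 3 UGT genes (UGT85A2, UGT73B4 and UGT88A1) were called higher and 1 CYP gene (CYP71B34) lower, beside 3.83% of all probe sets kept in both directions. At an adjusted p under 0.05 there were 3 members higher, beside 3.42%, and 4 lower (UGT76D1, CYP71B23, CYP71B34 and CYP71B37), beside 2.91%. All 8 CYP genes had a value below 0 (median -0.46). This difference takes in both wild types.

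On single arrays the CYP median separated the mutant from its own wild type but not fully from Col-7. The median of the 8 CYP genes, taken relative to each gene's mean over the 12 arrays on the log2 scale, was -0.27, -0.12 and -0.29 on the sahy1 arrays, -0.03, 0.01 and 0.22 on the SAHY1OE arrays, 0.12, -0.02 and -0.14 on the Col-7 arrays, and 0.29, 0.22 and 0.12 on the Col-0 arrays. All sahy1 values were below those of Col-0 and SAHY1OE, and 1 of them overlapped with Col-7. The same median over the 24 UGT genes lay between -0.11 and 0.08 on all 12 arrays. Shares over sets of 8 or 24 probe sets were not counted, so these medians have no background beside them. For single probe sets, sahy1 arrays lay below Col-0 arrays without overlap in 16.5% of all kept. CYP71B34 and CYP84A4 passed the filter in every group except sahy1, so the filter could favour low CYP medians in sahy1. The root hair markers EXPA7 and EXPA18 were also lower in sahy1 than in Col-0 (log2 -1.05 and -1.19, limma adjusted p = 0.000593 and 0.000102), and the part of root hair RNA in the lower CYP signals was not tested. Between the wild types these markers had log2 values of 0.10 and -0.08 (Col-7 over Col-0), and only 2 of the 4 root hair markers listed were paired with a probe set.

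**Figure D4:**
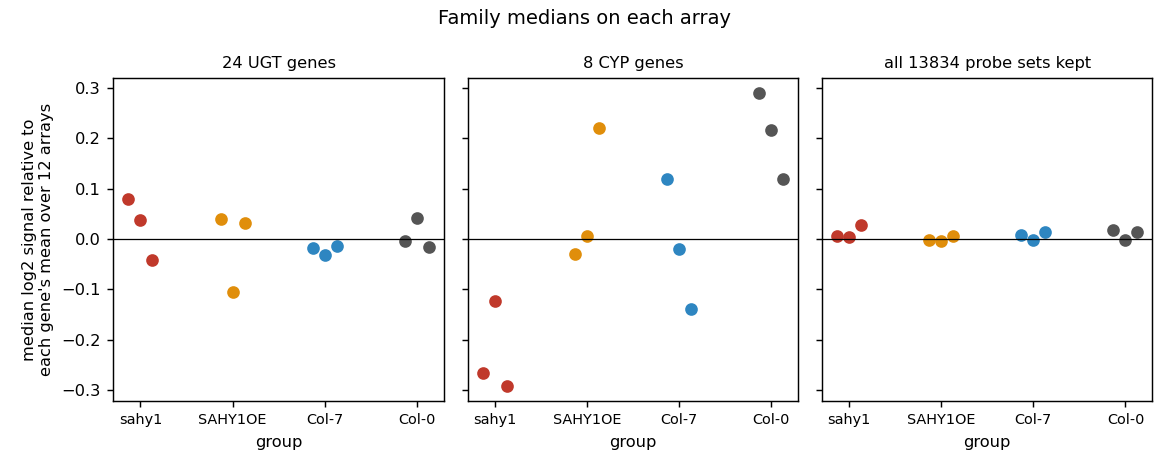
Median log2 signal relative to each gene's mean over the 12 arrays (y axis) for 24 UGT genes, 8 CYP genes and all 13834 probe sets kept, with 1 point per array and the groups on the x axis. The CYP medians lie between -0.29 and -0.12 in sahy1 and between 0.12 and 0.29 in Col-0, whereas the UGT medians stay between -0.11 and 0.08. The sets differ in size, and CYP71B34 and CYP84A4 passed the filter in every group except sahy1.

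CYP71B genes that lie close together did not rank alike on the arrays, though a rank also depends on the probes and is not a transcript amount. Of the 18, 11 lie in a stretch of chromosome 3 that spans 20 protein-coding genes, and only 4 of the 11 were kept (CYP71B23, CYP71B26, CYP71B34 and CYP71B37). The other 7 were dim in all groups, and the mean percentiles along the stretch ran from 11.4 to 86.8. The 4 kept genes had log2 fold changes of -0.77, -0.30, -0.91 and -0.79 in sahy1 against Col-0. CYP71B26 and CYP71B34 are adjacent, and so are 5 other pairs of members that were both kept, out of 21 adjacent pairs of members in all.

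**Figure D5:**
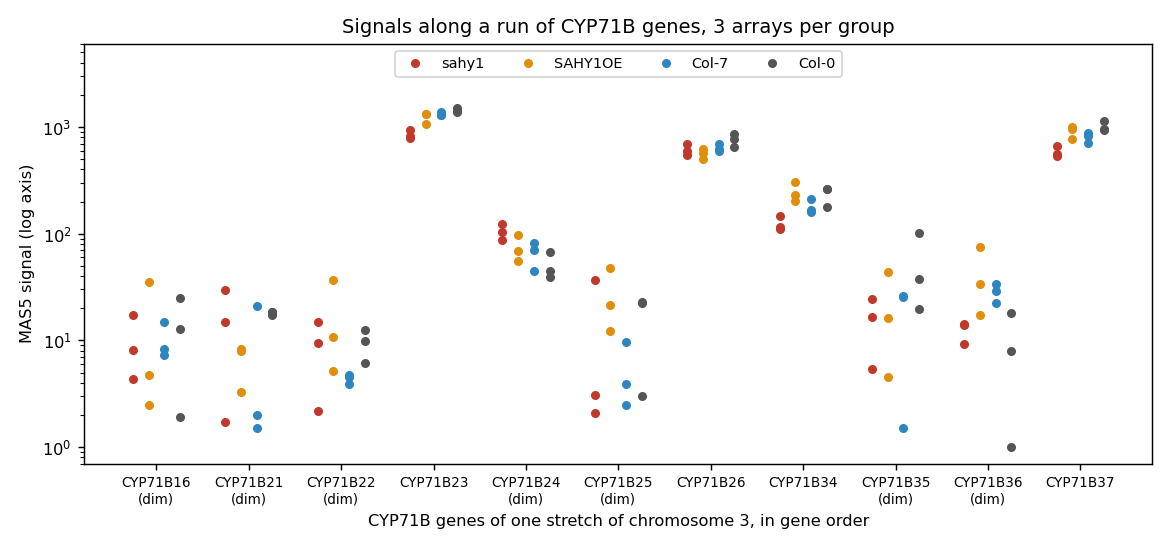
MAS5 signal (y axis, log scale) of 11 CYP71B genes in their order along chromosome 3 (x axis), with 3 arrays per group. CYP71B23, CYP71B26, CYP71B34 and CYP71B37 lie above 100 on every array, and sahy1 is the lowest group for 3 of them, whereas the 7 genes marked dim scatter at low signals.

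Glutathione S-transferases, which also act on toxins, were listed as other detoxification genes. Of 13 GST genes paired with a single-gene probe set, 10 were kept. In sahy1 against Col-0, 1 was called higher and 2 lower, beside 2.37% and 1.76% of all probe sets kept, with a median log2 fold change of -0.08. The counts were also 1 and 2 in sahy1 against Col-7, beside 1.34% and 1.02%. GSTU25 was higher, at 3142 to 3773 in sahy1 roots and 1084 to 1197 in Col-0 roots (log2 1.57, limma adjusted p = 3.05e-06). GSTU28 was lower, at 128 to 179 in sahy1 roots and 999 to 1030 in Col-0 roots (log2 -2.80, limma adjusted p = 1.77e-08), and GSTU26 was lower by a log2 value of 1.21 (limma adjusted p = 0.000127). No GST gene was called in SAHY1OE against Col-7 or in Col-7 against Col-0, beside 0.0217% and 1.81% of all probe sets kept. Listed MATE and ABC transporters, 12-oxophytodienoate reductases, cytochrome b5 and P450 reductases were paired with no single-gene probe set here.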

How the data were processed

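The authors deposited 1 MAS5 signal intensity per probe set and array, on a linear scale, with every array scaled to a trimmed mean of 500 after 2% of the values had been dropped from either tail. No other normalization is named, and the genome build and the MAS5 version are not given in the sources used here. The 12 samples fall into 4 groups by genotype. The study's methods state biological triplicates, and the labels do not say whether these were separate cultures. Precision is limited by the number of arrays, 3 in each group.

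Signals under 1 (46 to 333 per array) were set to 1, and log2 was taken. Of 22810 probe sets, 64 controls were left out, and 13834 of 22746 passed the filter at the 40th percentile. Group means were fitted to all 12 arrays with limma 3.58.1 in R 4.3.3 (eBayes, Benjamini-Hochberg adjustment over the probe sets kept), and a call required a fold above 2 at an adjusted p under 0.05. The 5 comparisons were sahy1 against Col-0, SAHY1OE against Col-7, Col-7 against Col-0, sahy1 against Col-7, and the first minus the second. The fit was tested on simulated data. Figures and tables used Python 3.11.15, pandas 2.3.3 and matplotlib 3.10.9.

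Only the 13513 probe sets with a single gene in the platform annotation were named, and the 503 with several genes were not. The rest of the 22746 probe sets other than controls carry no gene symbol in that annotation. A gene without a probe set here may thus still be read by the array. Values are given for genes called, for those at an adjusted p under 0.05 in sahy1 against Col-0, for extremes and for the brightest, 17 in all. Extremes were taken in sahy1 against Col-0, SAHY1OE against Col-7 and Col-7 against Col-0. Signals of every array are printed for most of the 17. Subfamilies with at least 3 genes kept are also described. Gene order comes from TAIR10.1 and is used for neighbours only. The members and the lists were chosen with earlier results of these data known. Alternatives were quantile normalization, median centring, adding 32 before log2, no filter, a 60th percentile filter, 2-group fits, a replicate block, an intensity trend, array weights, the methods' unpaired test, adjusted p alone, and leaving out each array. Sequences, detection calls and raw images were not used here.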

Additional observations from a re-analysis of the deposited data

Results flagged for a closer look

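The sahy1 effect (sahy1 against Col-0) minus the SAHY1OE effect (SAHY1OE against Col-7) passed the adjusted p and the fold limit for 4 of the 32 genes kept, beside 3.83% of all probe sets kept. This difference takes in both wild types. It was 1.56 for UGT85A2 (log2, limma adjusted p = 0.000421), the gene whose Col-0 arrays stand apart. It was 1.35 for UGT73B4 (limma adjusted p = 0.00934) and 1.08 for UGT88A1 (limma adjusted p = 0.0028), both highest in sahy1. It was -1.36 for CYP71B34 (limma adjusted p = 0.00967), which was lower in sahy1 than in Col-0 and had its highest group mean in SAHY1OE. With no filter the results of UGT73B4 and CYP71B34 no longer passed. Groups of 3 arrays were too small to look for single arrays that stand apart.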

How the results depend on the processing

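No result changed sign under any alternative. Of the values of single genes, 655 kept their side of the threshold, 68 no longer passed it and 4 newly passed it. In sahy1 against Col-0, 2 members were called, 4 with no filter (UGT85A5 and UGT72B3 joined them, with Col-0 signals of 1.9 to 10.3 and 26.4 to 54.8, so far under the filter that the size of their fold is uncertain) and 10 on adjusted p alone. Leaving out single arrays gave 2 to 3 calls. In Col-7 against Col-0, 1 member was called and 0 with the methods' unpaired test (UGT85A2, adjusted p = 0.118), with 1 to 1 when single arrays were left out. In sahy1 against Col-7, 0 were called, 5 on adjusted p alone and 0 to 0 without single arrays. For the sahy1 effect minus the SAHY1OE effect, 4 were called, 2 with no filter, 7 on adjusted p alone and 4 to 5 without single arrays (CYP71B37 joined). In SAHY1OE against Col-7 the count was 0 under every alternative run. In the labels, samples of the same number share only that number. Correlations of their deviations from the group means ran from -0.0995 to 0.2394, and those of different numbers from -0.2556 to 0.2497. For the same number they were 0.2346, 0.0583 and 0.2196 in SAHY1OE against Col-7, and 0.0857, -0.0995 and -0.0866 in sahy1 against Col-7. Whether samples of the same number share an effect was not tested. With the replicate block the counts were 2, 0, 1, 0 and 4 in the order of the comparisons, while UGT88A1 in sahy1 against Col-7 no longer passed (limma adjusted p = 0.0539). With the methods' unpaired test UGT73B4 stayed just past the limit in sahy1 against Col-0 (adjusted p = 0.0496). With no filter, UGT71C1, UGT71C2 and CYP71B29 no longer passed against Col-0, nor did UGT73B4 and UGT88A1 against Col-7. Over all probe sets, the 572 calls in sahy1 against Col-0 became 330 with the stricter filter and 285 with the methods' unpaired test. Of 4 UGT genes named by synonym and 5 probe sets of several genes, both chosen after seeing the data, 2 and 3 passed the filter. Adding those 2, or those 3, left the 5 counts at 2, 0, 1, 0 and 4. The 2-group fit and the unpaired test were not run for the difference of effects, which needs 4 groups. Causes of these changes were not tested.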

Other observations

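Genes below the filter were not tested, and a few of them, chosen after their values were seen, had groups that did not overlap. Among all probe sets kept, sahy1 arrays lay above Col-0 arrays without overlap for 17.5%, and SAHY1OE arrays above Col-7 arrays for 4.01%. Col-0 arrays were the lowest of the 12 for 3.9%. These shares were not counted among dim probe sets. UGT85A5, which lies next to UGT85A2, had signals of 41.5, 44.2 and 66.3 in sahy1 roots, 12.5, 23.6 and 24.7 in SAHY1OE roots, 22.6, 42.3 and 13 in Col-7 roots, and 10.3, 5.7 and 1.9 in Col-0 roots. As for UGT85A2, its Col-0 arrays were the lowest of the 12. The other 2 genes of that run, UGT85A7 and UGT85A3, had group means of 22.3 to 77.0 with groups that overlapped. UGT72B3 had 83.1, 75.4 and 97.5 in sahy1 roots, 125.5, 109.5 and 85.3 in SAHY1OE roots, 63.2, 57.6 and 61.4 in Col-7 roots, and 26.4, 54.8 and 35.8 in Col-0 roots, so that its SAHY1OE and Col-7 arrays did not overlap either.

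CYP71B24 is a dim gene of the chromosome 3 stretch in which the kept genes had lower values in sahy1. Its signals were 87.9, 123.4 and 104.8 in sahy1 roots and 67.3, 45.1 and 39.5 in Col-0 roots, the opposite direction to the kept genes there. These signals are near background, and the size of such a difference is uncertain. Among the other detoxification genes, GSTU25 and GSTU26 have consecutive locus codes and were called in opposite directions in sahy1 against Col-0.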
